A study of Mus musculus with 59 samples.

Results

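The presynaptic vesicle release machinery was followed here through 40 genes, out of 51456 genes measured. They were taken by name from a list of synapsins, SNARE proteins and their regulators, active zone proteins, vesicle membrane proteins, Rab3 and rabphilin, endocytic proteins and glutamate transporters, without the synaptotagmins. All 40 were found in the data, and each of them averaged at least 10 across the libraries, as 16919 genes did.

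Prefrontal cortex RNA came from C57BL/6J mice aged 25 postnatal days, in 59 libraries. Mice were wild type (WT) or heterozygous for Ank2 (HT), the gene of the membrane adaptor ankyrin-B. The labels name no specific change for the altered allele. Pups of both genotypes received vehicle, fluoxetine or lithium from day 3 to day 24, that is for 3 weeks, through the milk of the dam. Fluoxetine blocks serotonin reuptake, and lithium is a mood stabilizer that inhibits GSK3. The 6 groups were thus WT vehicle, WT fluoxetine, WT lithium, HT vehicle, HT fluoxetine and HT lithium. Each held 5 female and 5 male libraries, except WT fluoxetine with 5 female and 4 male. Nothing in the labels says how many litters or dams stood behind a group, so p-values measure the spread between these libraries.

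Synaptic vesicles are filled with glutamate by vesicular transporters, held in a reserve pool by synapsins and brought to the active zone, a protein scaffold under the presynaptic membrane. There Munc13 and RIM proteins prepare them for fusion, the SNARE proteins syntaxin, SNAP-25 and synaptobrevin drive it, and complexins clamp and promote it. Nsf takes the spent SNARE complex apart, and dynamin, amphiphysin, endophilin and synaptojanin recover the membrane by endocytosis. In cortex these genes are expressed mainly by neurons, and a vesicular transporter tells glutamatergic projection neurons (Slc17a7) from other cells.

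The upstream regions of 4 members with the smallest p-values under fluoxetine are shown because these mRNAs code for the proteins at the centre of the results: synapsin I, dynamin 1, bassoon and piccolo. The sequences are from RefSeq (build GRCm38.p6), 5′ to 3′ on the strand of the gene, up to 250 bases before the annotated start, and stop where the GENCODE gene model begins. Syn1 is shown for chrX:20921005-20921168 (minus strand), Dnm1 for chr2:32353339-32353579 (minus strand), Bsn for chr9:108190385-108190633 (minus strand) and Pclo for chr5:14514668-14514917 (plus strand). Capitals mark a match to 1 of 6 motifs, which were searched on both strands.
Syn1: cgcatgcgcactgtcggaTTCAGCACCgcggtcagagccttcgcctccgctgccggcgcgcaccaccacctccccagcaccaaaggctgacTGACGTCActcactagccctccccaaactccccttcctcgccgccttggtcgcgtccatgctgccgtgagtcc
Dnm1: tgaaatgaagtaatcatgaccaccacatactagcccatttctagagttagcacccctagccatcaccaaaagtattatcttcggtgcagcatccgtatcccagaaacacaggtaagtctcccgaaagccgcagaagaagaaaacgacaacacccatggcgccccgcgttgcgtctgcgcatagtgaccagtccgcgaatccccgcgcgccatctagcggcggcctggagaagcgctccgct
Bsn: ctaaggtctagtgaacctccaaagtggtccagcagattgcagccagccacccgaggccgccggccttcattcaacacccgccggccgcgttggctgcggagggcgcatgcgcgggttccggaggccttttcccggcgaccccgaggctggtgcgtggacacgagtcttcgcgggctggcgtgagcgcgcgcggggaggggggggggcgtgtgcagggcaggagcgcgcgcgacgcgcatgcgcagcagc
Pclo: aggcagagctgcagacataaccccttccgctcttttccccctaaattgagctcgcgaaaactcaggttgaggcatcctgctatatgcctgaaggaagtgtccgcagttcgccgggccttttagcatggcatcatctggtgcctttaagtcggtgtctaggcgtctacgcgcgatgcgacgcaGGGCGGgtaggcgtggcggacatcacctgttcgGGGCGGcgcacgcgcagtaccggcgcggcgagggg

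The Syn1 region holds TTCAGCACC, the left part of the RE1 element bound by the neuronal silencer REST, and the full cAMP response element TGACGTCA. The Pclo region holds GGGCGG, a GC box, at 2 places. None of the 6 motifs was found in the windows of Dnm1 and Bsn. A match is a run of letters and not evidence of binding.

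RefSeq windows were found for 35 of the 40 members, all but Syn3, Snap25, Vamp2, Rims2 and Syngr3. They were set beside those of all 27025 genes from the same source. Motifs were counted over the full 250 bases, without the cut at the GENCODE gene model. The windows of Sh3gl2 and Rab3c lie inside that model, and that of Cplx2 ends at 54302555, far before the gene start at 54371349. GGGCGG was present in 22 of 35 members (62.9%) and in 32.9% of all windows. Among members with a window, GGGCGG was found in 6 of the 14 that rose with fluoxetine in the comparison described below and in 16 of the 21 that did not pass. TTCAGCACC was present in 2 of 35 members (5.71%), Syn1 and the liprin gene Ppfia3, and in 0.285% of all windows. TGACGTCA was present in Syn1 and the endophilin gene Sh3gl2 (5.71%), against 1.62% of all windows. The Egr1 site GCGTGGGCG was present in 1 member (2.86%) against 0.54%, and the TATA box TATAAA in 2 (5.71%) against 13%. CCAAT was present in 8 (22.9%) against 34.5%. Matches to GGGCGG and GCGTGGGCG can overlap, and a window counts for both. The members' windows were rich in G and C, with a median of 61.2% and 15 CpG sites, against 52% and 6 over all windows. Napb, Rph3a, Dnm1, Bsn, Synj1, Nsf, Amph and Cplx2 were among the members with no match at all.

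Levels differed widely within the machinery. The unit throughout is the normalized count, an estimated read count divided by a normalization factor, and levels of different genes are compared only after division by transcript length in kilobases. In WT vehicle, the SNARE gene Snap25 stood highest with 31386 ± 1864 normalized counts per kb (SD, n = 10), above its nearest neighbour by more than the SD of both. The vesicle protein gene Syp followed with 17250 ± 1627 and the glutamate transporter gene Slc17a7 with 15954 ± 1988, and these did not separate beyond their spread. Vamp2 (synaptobrevin 2) stood at 13744 ± 667 per kb and Rab3a, the main vesicle Rab GTPase, at 9847 ± 699, each apart from the next gene. From Cplx1 (7767 ± 334 per kb) through Dnm1, Nsf, Cplx2, Syn1, Syngr1, Stx1a, Syn2, Napb, Sv2b, Rph3a and Sh3gl2 to Sv2a (3493 ± 132), no gene separated from the next in order. The active zone scaffolds were lower, with Bsn at 1137 ± 138 per kb and Pclo at 587 ± 50.3. At the lower end stood Slc17a6, the transporter of subcortical glutamatergic neurons, at 176 ± 23.8 per kb, Sv2c at 166 ± 21.7, Cplx3 at 121 ± 28.7, Syn3 at 101 ± 8.34 and Unc13c, a Munc13 isoform, at 90.1 ± 10.3. These lowest 5 did not separate from each other in order.

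**Figure D1:**
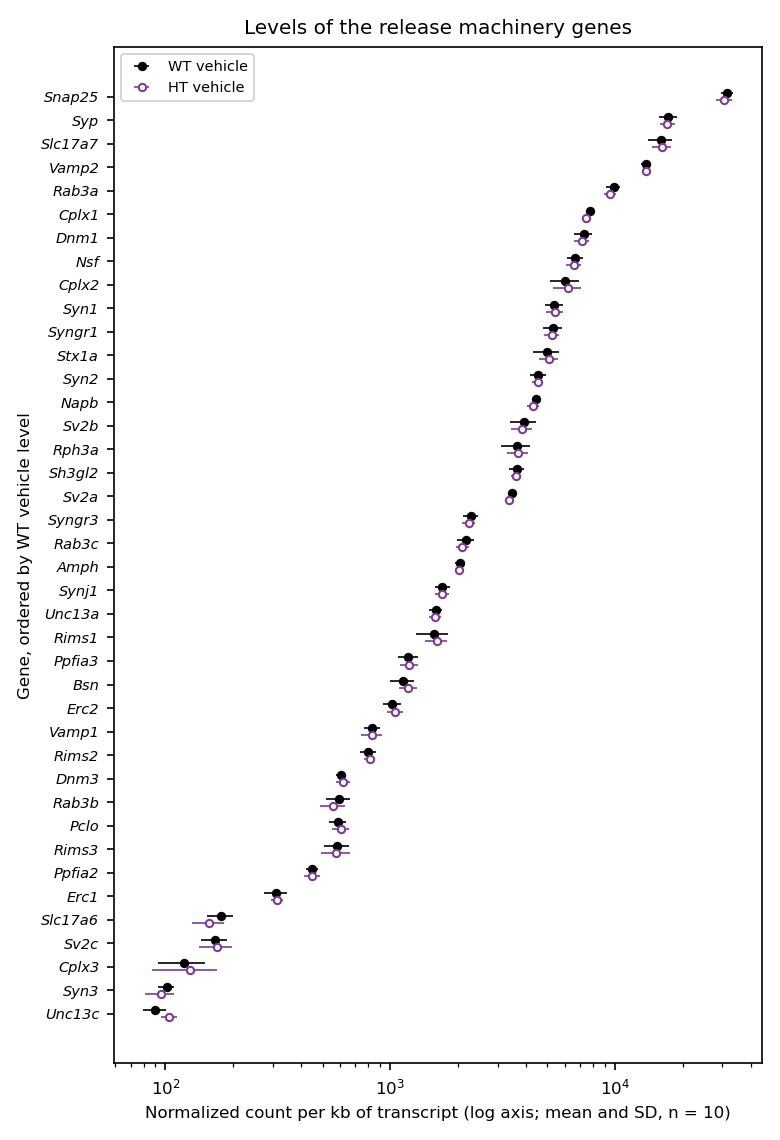
Level of each of the 40 genes in WT vehicle (filled) and HT vehicle (open), as normalized counts per kb of transcript on a log axis, with points at the mean and bars at the SD over 10 libraries. Snap25 is highest at 31386 per kb in WT vehicle and Unc13c lowest at 90.1, and 0 of the 40 genes passed the test between these groups (limma; 2 at an unadjusted p under 0.05).

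Several libraries bear on the results. Library sums ran from 30294700 to 33772300. Marker lists put the tissue as cortex with neighbouring tissue in some libraries: Slc17a7 was at 34580 or more in every library, while markers of striatum, thalamus, dentate gyrus or choroid plexus lay beyond a set limit in 11 libraries. HT fluoxetine female replicate 2 and WT fluoxetine male replicate 1 were low for most members, with a median deviation from their group's median of -0.29 and -0.26 (log2). So were 4 vehicle libraries, WT vehicle female replicates 1 and 2 (-0.26 and -0.16) and HT vehicle female replicates 3 and 4 (-0.18 and -0.14). Within their vehicle groups of 10, these were among the 2 lowest libraries for 33, 27, 28 and 28 of the 40 members. Their excitatory neuron markers (6 genes, without Slc17a7) lay at -0.58, -0.41, -0.39 and -0.31 relative to the mean over all libraries on the log2 scale, and their olfactory bulb markers at 2.67, 2.20, 2.23 and 1.95. Values without these libraries are given beside the results. Ank2 itself ran from 23284 to 30855 in WT vehicle and from 18539 to 21059 in HT vehicle, with no overlap.

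Fluoxetine raised many release genes. Over both genotypes 17 of 40 members rose and 0 fell (limma, adjusted p under 0.05 over all genes tested). Of all 16919 genes, 26.5% passed in either direction and 13.2% rose. Among genes averaging at least 50, 30.9% passed and 15.4% rose. The members were chosen with earlier results of these data known. The median change of the members was 0.10 on the log2 scale, 32 of 40 lay above 0, and the median of all genes was -0.00. The genes that rose were Dnm1 and Dnm3, Syn1 and Syn3, Bsn, Pclo, Rims2, Erc1, Erc2, Ppfia2, Vamp2, Cplx2, Unc13c, Nsf, Synj1, Rab3c and Slc17a7. Each of the 17 changes was small, between 0.10 and 0.25 on the log2 scale. Scaling altered the split: with the same sum in every library 10 members rose and 2 fell (8.26% and 19% of all genes), and with quantile normalization 7 rose and 5 fell (11.7% and 12.5%). Syngr3 and Sv2a fell under both of these, and Stx1a, Syngr1 and Sh3gl2 under quantile normalization. In bulk tissue, fewer cells of a type and less RNA per cell cannot be told apart. The excitatory neuron markers moved with these genes: 3 of 6 rose, with a median change of 0.15 on the log2 scale, and their mean level ran from -0.58 to 0.14 in WT vehicle, from -0.39 to 0.10 in HT vehicle, from -0.34 to 0.31 in WT fluoxetine and from -0.47 to 0.33 in HT fluoxetine. Of 9 inhibitory neuron markers 0 rose and 1 fell (median -0.13), and of 5 blood markers 4 fell (median -0.64). Of 5 olfactory bulb markers 0 passed (median -0.73), and of 5 microglia markers 2 rose (median 0.08). The olfactory bulb level ran from -1.15 to 2.67 in WT vehicle, -3.20 to 2.23 in HT vehicle, -3.18 to 2.48 in WT fluoxetine and -3.59 to 1.16 in HT fluoxetine. No defining excitatory marker was at 0 in any library. The part of cell makeup in the rise was not tested.

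**Figure D2:**
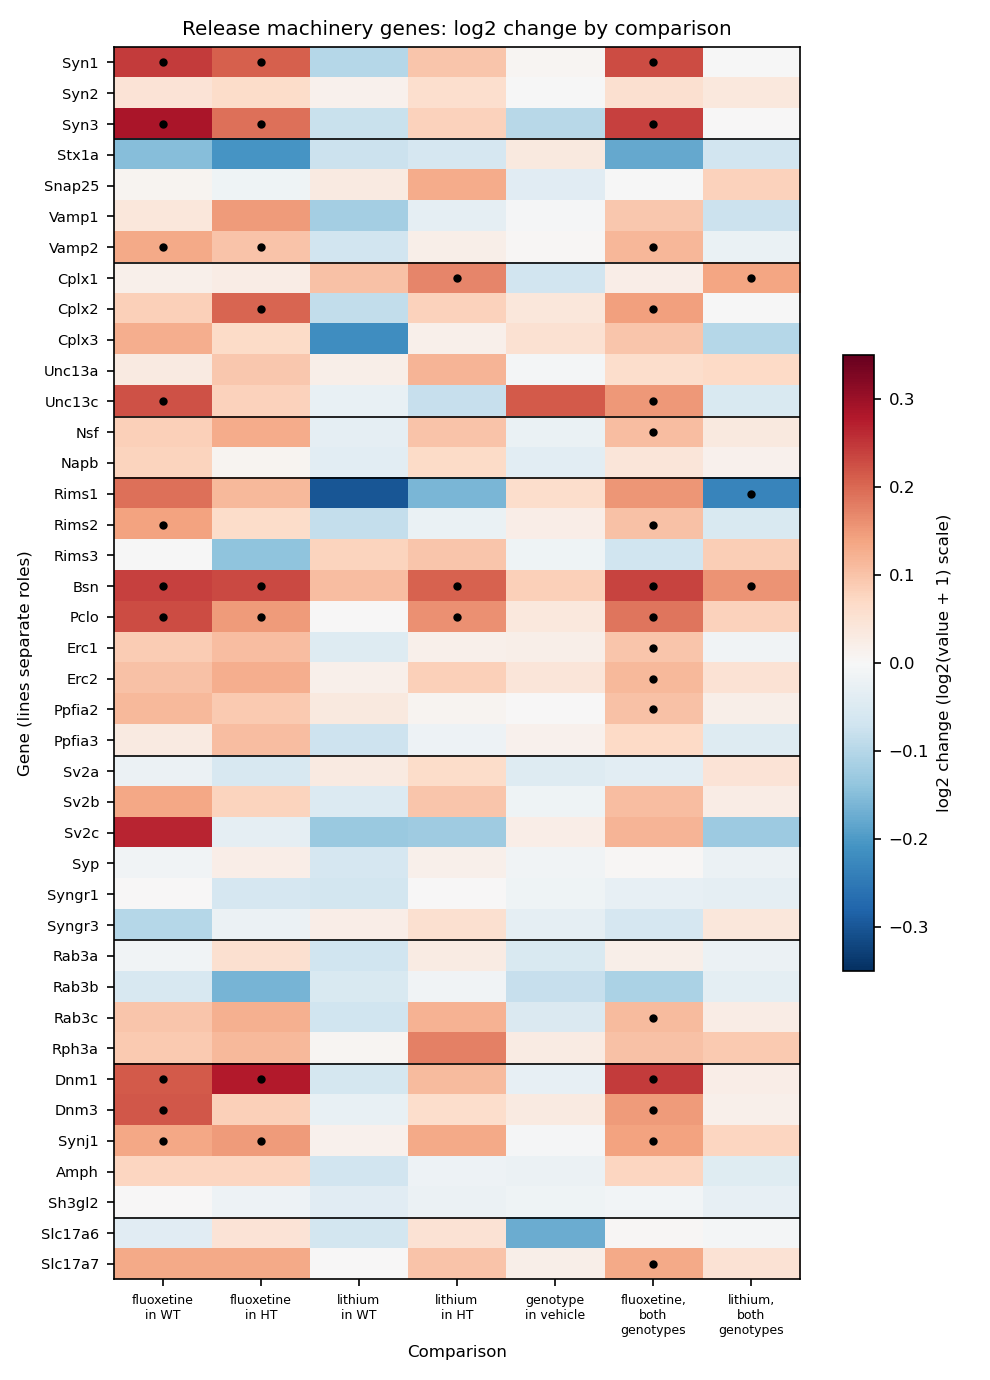
Change of each gene on the log2(value + 1) scale (red higher, blue lower) in 7 comparisons, with genes in rows grouped by role and a black dot where the adjusted p was under 0.05. The fluoxetine columns carry 10, 8 and 17 dots, all on higher values; the lithium columns carry 0, 3 and 3, and genotype in vehicle none.

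Among the endocytic genes 3 of 5 rose. The share of all genes tested that rose, 13.2%, stands beside this count and those of the other roles below. Dnm1 codes for dynamin 1, the neuronal GTPase that cuts vesicles from the membrane (chromosome 2, 32308471 to 32353338, GRCm38). Its normalized counts in WT vehicle ran from 28471 through a median of 34008 to 36639, and in WT fluoxetine from 31447 through 39472 to 44678. In HT vehicle they ran from 27427 through 33521 to 35873, and in HT fluoxetine from 37404 through 39326 to 43702. All 10 HT fluoxetine libraries lay above every HT vehicle library, and 7 of 9 WT fluoxetine libraries lay above the highest WT vehicle library. It was 1 of 40 members without overlap between these HT groups, where 0.42% of all genes tested had none. The other drug groups gave 0 of 40 against vehicle, where the share of all genes was 1.51% for WT fluoxetine, 0.0946% for WT lithium and 0.0768% for HT lithium. Dnm1 rose over both genotypes (log2 change 0.25, SE 0.03, adjusted p = 2.8e-08).

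Dnm3, another dynamin of the nervous system, ran from 4208 through 4511 to 4978 in WT vehicle and from 4654 through 5151 to 5774 in WT fluoxetine. In HT vehicle it ran from 4273 through 4580 to 5415 and in HT fluoxetine from 4361 through 4923 to 5430. The WT groups overlapped little, with 7 of 9 fluoxetine libraries above the highest vehicle library, whereas 1 of 10 was so in HT. The rise over both genotypes was 0.15 (SE 0.03, adjusted p = 0.00045). The difference of the fluoxetine change between genotypes was -0.13 (HT minus WT, adjusted p = 0.65).

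Synj1, which codes for the phosphatase synaptojanin 1 that frees vesicles of their clathrin coat, ran from 10502 through 12085 to 13545 in WT vehicle and from 12015 through 13162 to 15444 in WT fluoxetine. Corresponding values were 10701, 12122 and 13446 in HT vehicle and 11974, 13248 and 15577 in HT fluoxetine. The groups overlapped in both genotypes, and the change was 0.14 (SE 0.03, adjusted p = 0.00083). The amphiphysin gene Amph (0.07, adjusted p = 0.064) and the endophilin gene Sh3gl2 (-0.01) did not pass.

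Of 3 synapsins, which tether vesicles to each other and to actin, 2 rose. Syn1 (chromosome X, 20860511 to 20921004) ran from 14347 through 18178 to 19000 normalized counts in WT vehicle and from 18924 through 20717 to 23307 in WT fluoxetine. It ran from 15104 through 17934 to 19901 in HT vehicle and from 14714 through 20620 to 22862 in HT fluoxetine. In each genotype 8 fluoxetine libraries lay above every vehicle library, and the low 14714 belonged to replicate 2 of the HT fluoxetine females. Over both genotypes Syn1 rose 1.17-fold (log2 change 0.23, SE 0.04, adjusted p = 1.6e-06).

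Syn3, a synapsin at a far lower level per kb, ran from 343 through 408 to 474 in WT vehicle and from 412 through 483 to 666 in WT fluoxetine. In HT it ran from 293 through 378 to 503 with vehicle and from 323 through 434 to 514 with fluoxetine. All 9 WT fluoxetine libraries and 9 of 10 HT fluoxetine libraries were above the median of their vehicle group. The change was 1.18-fold (log2 0.24, SE 0.05, adjusted p = 0.00011). Syn2 did not pass (log2 change 0.06).

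At the active zone 6 of 9 genes rose, beside 13.2% of all genes tested and 33.2% of those in the longest class of transcript length. With a trend of length and GC content removed, Bsn was the only active zone gene that passed. Bsn codes for bassoon, a giant scaffold protein of the presynaptic cytomatrix (chromosome 9, 108096022 to 108190384). In WT vehicle it ran from 14055 through 19090 to 20289 and in WT fluoxetine from 17108 through 21308 to 25029. It ran from 16207 through 19603 to 21117 in HT vehicle and from 18647 through 22621 to 26279 in HT fluoxetine. In each genotype 8 fluoxetine libraries exceeded the highest vehicle value, and WT vehicle females replicates 1 and 2 were the lowest of their group. Bsn rose 1.18-fold (log2 0.24, SE 0.04, adjusted p = 8.9e-06).

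Pclo codes for piccolo, the partner scaffold of bassoon (chromosome 5, 14514918 to 14863459). WT vehicle libraries ran from 9571 through 12126 to 12774 and WT fluoxetine libraries from 12310 through 13693 to 15571. HT vehicle libraries ran from 10605 through 12060 to 14110 and HT fluoxetine libraries from 11106 through 13502 to 15318. In WT 8 of 9 fluoxetine libraries lay above every vehicle library, and in HT 2 of 10 did, although 9 of 10 were above the HT vehicle median. The change over both genotypes was 1.14-fold (log2 0.19, SE 0.03, adjusted p = 3.2e-05).

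Rims2 codes for RIM2, which binds Rab3 on the vesicle and calcium channels in the membrane. It ran from 3226 through 3848 to 4354 in WT vehicle, from 3905 through 4176 to 4622 in WT fluoxetine, from 3640 through 3878 to 4239 in HT vehicle and from 2950 through 4252 to 4438 in HT fluoxetine. The lowest value of all was again that of HT fluoxetine female replicate 2, and the groups otherwise overlapped in part. The log2 change was 0.10 (SE 0.03, adjusted p = 0.012). The ELKS genes Erc1 and Erc2 (0.10 and 0.11) and the liprin gene Ppfia2 (0.10) also rose. Of 12 other settings, Erc1 passed in 4, Ppfia2 in 6, Erc2 in 7 and Rims2 in 8. Ppfia2 stood high in HT fluoxetine female replicate 2 (6183) and WT fluoxetine male replicate 1 (5199), and it did not pass without these 2 libraries. Rims1, the paralogue of Rims2, had a larger estimate, 0.15, with a wider error (SE 0.07, adjusted p = 0.11), while Ppfia3 (0.07) and Rims3 (-0.07) did not pass either. HT fluoxetine female replicate 2 was low for Rims1 (6249, others 9860 to 14415), Ppfia3 (4659, others 5667 to 6906) and Rims3 (1573, others 3127 to 4198).

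Of 4 SNARE genes 1 rose. Vamp2 codes for synaptobrevin 2, the vesicle SNARE of most forebrain synapses (chromosome 11, 69088490 to 69092384). It ran from 27715 through 30468 to 32063 in WT vehicle, from 31872 through 32887 to 35006 in WT fluoxetine, from 27812 through 30455 to 32478 in HT vehicle and from 24946 through 33280 to 35198 in HT fluoxetine. In each genotype 8 fluoxetine libraries were above all vehicle libraries. The change was 1.08-fold (log2 0.12, SE 0.02, adjusted p = 0.00027), and 0.03 with quantile normalization (adjusted p = 0.27). Its partners on the plasma membrane did not pass: Snap25 changed by -0.00 (95% interval -0.07 to 0.07) and the syntaxin gene Stx1a by -0.18 (SE 0.09, adjusted p = 0.16). For Stx1a, HT fluoxetine female replicate 2 was far below the rest of its group, at 2835 (others 9138 to 12585). Vamp1 was at 0.09 (adjusted p = 0.11).

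Among the SNARE regulators, Cplx2 (complexin 2; log2 change 0.14, adjusted p = 0.024) and Unc13c (0.15, adjusted p = 0.025) rose, and Cplx1, Cplx3 and Unc13a did not pass. Of the disassembly pair Nsf rose (0.11, adjusted p = 0.027) and its adaptor gene Napb did not pass (0.04). Rab3c, a vesicle Rab GTPase, ran from 14830 through 18975 to 19795 in WT vehicle, from 16989 through 19879 to 21628 in WT fluoxetine, from 15271 through 17895 to 19292 in HT vehicle and from 17145 through 18773 to 22027 in HT fluoxetine. Above the highest vehicle library lay 6 of 9 WT and 4 of 10 HT fluoxetine libraries, and its change was 0.11 (SE 0.04, adjusted p = 0.019). Rab3a (0.02), Rab3b (-0.11) and the Rab3 effector gene Rph3a (0.10) did not pass. Slc17a7 rose by 0.13 (adjusted p = 0.021), whereas Slc17a6 was at 0.00.

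Of the 6 genes of the SV2, synaptophysin and synaptogyrin families 0 passed with the deposited scaling (limma, 0 at an unadjusted p under 0.05). Vamp2 and Slc17a7, whose proteins also sit in the vesicle membrane, are counted above under other roles, and both rose. Their log2 changes with fluoxetine were -0.04 for Sv2a, 0.11 for Sv2b, 0.12 for Sv2c, 0.01 for Syp, -0.03 for Syngr1 and -0.06 for Syngr3. The 95% interval for Syp, synaptophysin, was -0.06 to 0.07, that for Sv2a -0.08 to 0.01, and that for Sv2c, the widest of the 6, -0.05 to 0.29. Whether these 6 genes differ from the scaffold and endocytic groups was not tested.

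**Figure D3:**
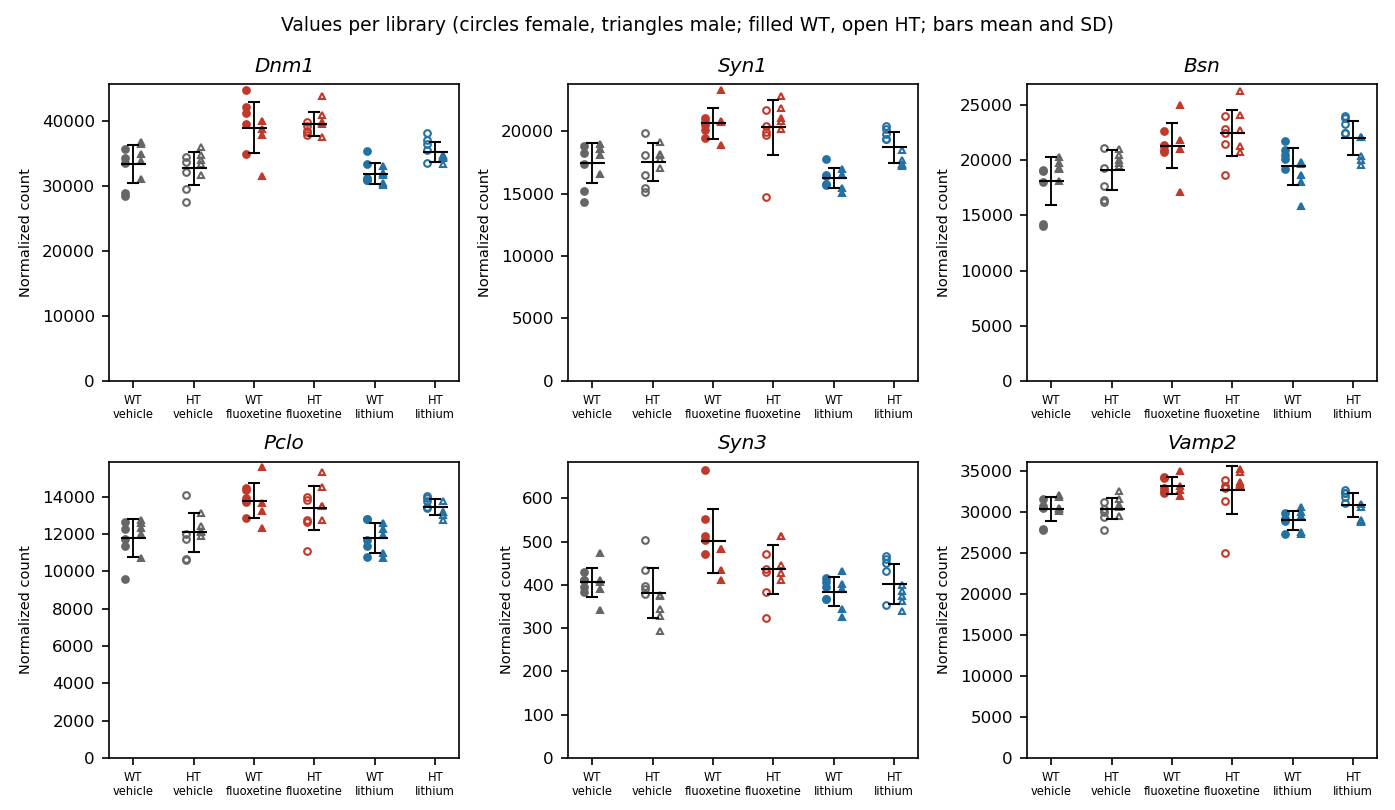
Normalized counts per library of Dnm1, Syn1, Bsn, Pclo, Syn3 and Vamp2 in the 6 groups (circles female, triangles male; filled WT, open HT; black bars mean and SD, n = 10 or 9). Most fluoxetine libraries (red) lie above the median of the vehicle libraries (grey) of their genotype, but the ranges overlap in each case except Dnm1 in HT. Low fluoxetine libraries stand in Syn1 (14714, HT), Vamp2 (24946, HT) and Bsn (17108, WT). The ranges of lithium libraries (blue) also overlap those of vehicle for each gene, and 7 of 10 HT lithium libraries of Bsn exceed every HT vehicle library.

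Each genotype on its own gave fewer calls. In WT, 10 members rose with fluoxetine and 0 fell, where 14.8% of all genes passed, 7% higher and 7.78% lower. In HT, 8 rose and 0 fell, where 14% passed, 6.63% higher and 7.38% lower. The HT count was 3 to 10 with 1 library left out. Without the 4 low vehicle libraries it was 3, where 8.65% of all genes passed, 3.95% higher and 4.7% lower. Dnm1, Syn1, Syn3, Bsn, Pclo, Synj1 and Vamp2 passed in both. Dnm1 changed by 0.21 (SE 0.05, adjusted p = 0.00058) in WT and by 0.28 (SE 0.04, adjusted p = 1.1e-05) in HT, and Syn1 by 0.25 (adjusted p = 0.00042) and 0.21 (adjusted p = 0.0022). Dnm3, Rims2 and Unc13c passed in WT, and Cplx2 passed in HT. The test of the difference itself, HT minus WT, called 0 members (1 at an unadjusted p under 0.05; 0% of all genes called).

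Fluoxetine was also read within each sex, a comparison added after the data were seen. In females 18 rose and 1 fell, Rab3b (19.8% of all genes passed, 9.97% higher and 9.79% lower), with a median log2 change of 0.13 over the members. In males 7 rose and 0 fell (12.4% passed, 5.27% higher and 7.14% lower), with a median of 0.05. Syn1 changed by 0.23 in females (adjusted p = 0.00052) and by 0.22 in males (adjusted p = 0.0015), Syn3 by 0.18 (adjusted p = 0.049) and 0.30 (adjusted p = 0.0018), Dnm1 by 0.32 (adjusted p = 6.5e-07) and 0.17 (adjusted p = 0.0076). Vamp2, Pclo and Dnm3 also passed in each sex. Cplx2 was at 0.30 in females and -0.01 in males, which gave the smallest p of any member for the difference, 0.31 (SE 0.10), without passing (adjusted p = 0.25). That test called 0 members (8 at an unadjusted p under 0.05; 0% of all genes called). The 4 low vehicle libraries are all female.

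Without the 4 low vehicle libraries, singled out after the data were seen for their low values of these genes, 9 members rose with fluoxetine over both genotypes and 1 fell, Syngr3 (-0.09, adjusted p = 0.030), where 9.64% of all genes rose and 10.5% fell. Dnm1 was then at 0.20 and Syn1 at 0.17. Without the 2 low fluoxetine libraries, 23 rose and 0 fell (15.9% and 14.8% of all genes). Without the 11 libraries beyond the limit for striatum, thalamus, dentate gyrus or choroid plexus markers, 11 rose and 0 fell (9.55% and 9.5%). Olfactory bulb markers were not part of that limit. Dnm1, Syn1, Syn3, Bsn and Dnm3 passed under all 12 other settings tried and with any 1 library left out. Of these 12 settings Pclo and Vamp2 passed in 11, Synj1 and Slc17a7 in 10, Unc13c in 9, Cplx2 in 8, Rab3c in 7 and Nsf in 6. Leaving out WT fluoxetine male replicate 4 took the count to 11.

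Transcript length moved with the fluoxetine change. When all genes tested were divided into 5 classes of like size by length, the median log2 change with fluoxetine rose from -0.10 in the shortest to -0.04, -0.00, 0.02 and 0.07 in the longest, and the share that rose from 2.63% to 33.2%. Members are long, with a median of 4257 bases against 3042 over all genes tested. Of the 14 members in the longest class 9 rose, of 12 in the next 5, of 8 in the middle class 2, of 5 in the class below 1, and of 1 in the shortest 0. The members' medians in the 4 longest classes were 0.12, 0.09, 0.08 and -0.00, from longest to shorter. After a trend of length and GC content was removed from each library, 8 members rose over both genotypes, where 18.1% of all genes passed and 9.21% rose. They were Syn1 (0.23), Syn3 (0.22), Dnm1 (0.22), Vamp2 (0.16), Slc17a7 (0.15), Bsn (0.13), Rab3a (0.10) and Dnm3 (0.09). Pclo, the longest transcript of the list at 20084 bases, was at 0.07 (adjusted p = 0.27), and the long genes Ppfia2, Erc1 and Rab3c were at 0.00, 0.02 and 0.03.

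**Figure D4:**
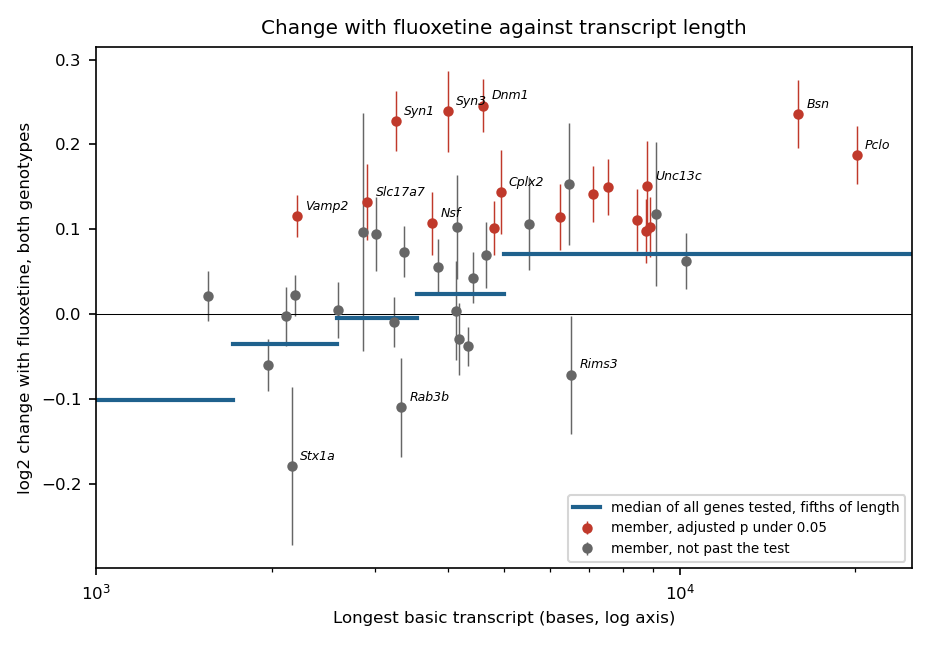
Log2 change with fluoxetine over both genotypes (points with SE bars; red, adjusted p under 0.05) against the length of the longest transcript in bases on a log axis, with blue bars at the median of all genes tested in each of the 5 classes of length. The blue bars climb from -0.10 to 0.07. Vamp2, Syn1, Syn3 and Dnm1 lie well above them, and Stx1a, Rims3 and Rab3b are among those below. HT fluoxetine female replicate 2 was far below the rest of its group for Stx1a (2835) and Rims3 (1573).

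Lithium changed few release genes. Over both genotypes 2 members rose and 1 fell, where 10.2% of all genes passed, 5.54% higher and 4.67% lower. The median log2 change of the members was 0.01 and 21 of 40 lay above 0. In WT, 0 members passed (limma; 3 at an unadjusted p under 0.05; 2.22% of all genes called, 1.33% higher and 0.892% lower). In HT, 3 rose and 0 fell: Cplx1, Bsn and Pclo (5.01% of all genes called, 2.75% higher and 2.26% lower). Without the 4 low vehicle libraries 1 passed in HT, where 0.674% of all genes did.

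Cplx1 codes for complexin 1, which binds the assembled SNARE complex (chromosome 5, 108518554 to 108550024). In WT vehicle it ran from 15928 through 17285 to 18025 and in WT lithium from 17034 through 18216 to 19636. In HT vehicle it ran from 15249 through 16327 to 16983 and in HT lithium from 16763 through 18252 to 20334. Above the highest vehicle library lay 7 of 10 WT lithium and 8 of 10 HT lithium libraries. Over both genotypes Cplx1 rose 1.10-fold (log2 0.14, SE 0.02, adjusted p = 7.7e-05), and it passed in each sex (0.13 in females, adjusted p = 0.0086; 0.14 in males, adjusted p = 0.018). In females 10.4% of all genes passed with lithium (5.55% higher, 4.9% lower) and in males 1.36% (0.692% higher, 0.668% lower). Within a genotype the change was 0.17 in HT (adjusted p = 0.0017) and 0.10 in WT (adjusted p = 0.097). Cplx1 passed over both genotypes under all 12 other settings and with any 1 library left out. With fluoxetine it changed by 0.02.

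Rims1 codes for RIM1, a core organizer of vesicle priming (chromosome 1, 22286251 to 22805994). It ran from 6640 through 10644 to 11553 in WT vehicle and from 6360 through 7898 to 10432 in WT lithium. In HT it ran from 8191 through 10538 to 11816 with vehicle and from 7765 through 9200 to 10296 with lithium. The ranges overlapped in both genotypes, but none of the 20 lithium libraries lay above the median of its vehicle group. Rims1 fell to 0.853-fold over both genotypes (log2 -0.23, SE 0.07, adjusted p = 0.027). Without a filter on low values it did not pass (adjusted p = 0.052), and it passed under the other 11 settings. In males the change was -0.39 (adjusted p = 0.033), and in females, whose vehicle groups hold the 4 low libraries, -0.07 (adjusted p = 0.69). The difference between the sexes, 0.31 (SE 0.14), did not pass (adjusted p = 0.28).

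Bsn also rose with lithium. WT lithium libraries ran from 15851 through 19771 to 21775 and HT lithium libraries from 19600 through 22289 to 24072, beside the vehicle values above. In HT 7 of 10 lithium libraries exceeded every vehicle library, and in WT 3 of 10. The change over both genotypes was 0.16 (SE 0.04, adjusted p = 0.0060). It came to 0.33 in females (adjusted p = 0.00014) and -0.01 in males, a difference of 0.34 (SE 0.08) that did not pass (adjusted p = 0.078). Without the 4 low vehicle females the change over both genotypes was 0.09 (adjusted p = 0.13), and with the length and GC trend removed 0.12 (adjusted p = 0.061). Pclo, called in HT alone (0.16, adjusted p = 0.042), passed in 4 of the 20 fits that left out 1 library.

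**Figure D5:**
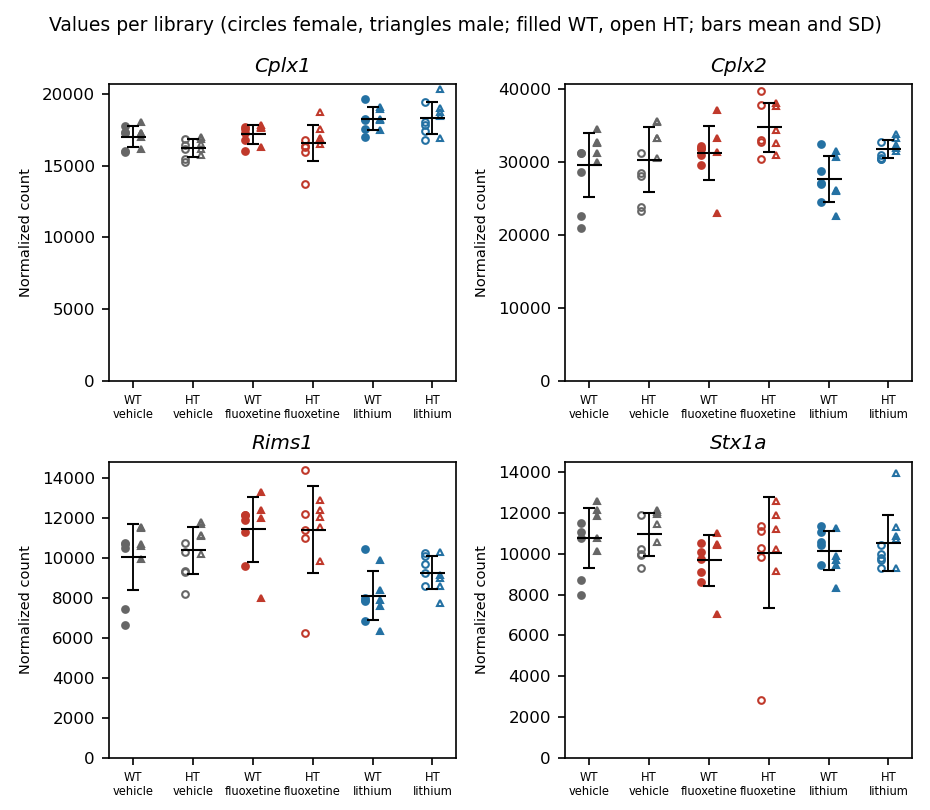
Normalized counts per library of Cplx1, Cplx2, Rims1 and Stx1a in the 6 groups (circles female, triangles male; filled WT, open HT; black bars mean and SD, n = 10 or 9). Lithium libraries (blue) of Cplx1 lie mostly above the vehicle libraries, none of those of Rims1 lies above its vehicle median, and 1 HT fluoxetine library is far down in Stx1a (2835).

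Whether lithium acted differently on the genotypes was tested directly. The difference, HT minus WT, lay above 0 for 38 of 40 members, with a median of 0.09 on the log2 scale (median of all genes -0.00), and passed for 0 (4 at an unadjusted p under 0.05; 0% of all genes called). The smallest p-values were for Syn1 (0.20, SE 0.07) and Dnm1 (0.17, SE 0.06), each with adjusted p = 0.62. Members of a neuronal list vary together between libraries, so the 38 are not independent counts. Excitatory neuron markers had a median level of -0.02 in WT vehicle and -0.05 in WT lithium, and of 0.05 and 0.12 in HT, and their part was not tested.

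The drugs were also compared with each other, without the vehicle libraries that both drug comparisons share. Relative to lithium, 15 members were higher with fluoxetine and 3 lower, where 29.3% of all genes passed, 14% higher and 15.2% lower. Rims1 differed most among the members, 1.30-fold (log2 0.38, SE 0.07, adjusted p = 3.7e-05). Dnm1 was higher by 0.22 (adjusted p = 2.6e-07), Syn1 by 0.23 (adjusted p = 1.2e-06), Vamp2 by 0.14 (adjusted p = 1.6e-05), Syn3 by 0.24 (adjusted p = 0.00012) and Rims2 by 0.16 (adjusted p = 0.00013). Sv2c (0.24), Unc13c (0.20), Vamp1 (0.17), Cplx2 (0.15), Dnm3 (0.13), Amph (0.12), Ppfia3 (0.11), Erc1 (0.11) and Pclo (0.11) were also higher. The 3 lower genes were Cplx1 (-0.11, adjusted p = 0.00020), the vesicle glycoprotein gene Sv2a (-0.09, adjusted p = 0.0033) and the synaptogyrin gene Syngr3 (-0.10, adjusted p = 0.011). Bsn, which rose with each drug, did not differ by the test (log2 0.08).

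Genotype alone moved none of the members past the test. Among vehicle libraries 0 passed (limma; 2 at an unadjusted p under 0.05; 0.00591% of all genes called), and over all drugs 0 passed (10 at an unadjusted p under 0.05; 0.248% of all genes called, 0.0946% higher and 0.154% lower). The smallest p-values over all drugs were those of Unc13c (0.15, SE 0.04, adjusted p = 0.086), Bsn (0.11, SE 0.03, adjusted p = 0.086) and Cplx2 (0.13, SE 0.04, adjusted p = 0.088).

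Unc13c, a Munc13 isoform that primes vesicles, ran from 632 through 813 to 913 in WT vehicle, 754 through 931 to 1089 in WT fluoxetine and 619 through 764 to 895 in WT lithium. In HT it ran from 747 through 924 to 1009 with vehicle, 771 through 985 to 1142 with fluoxetine and 680 through 877 to 1075 with lithium. The HT medians were the higher ones under every drug, and the ranges overlapped. Of 10 HT vehicle libraries 5 lay above the highest WT vehicle library and 9 above the WT vehicle median. Cplx2 ran from 21006 through 31212 to 34539 in WT vehicle, 22962 through 31763 to 37134 in WT fluoxetine and 22625 through 27065 to 32526 in WT lithium. In HT it ran from 23292 through 30903 to 35704, 30435 through 33749 to 39722 and 30391 through 31720 to 33845, in the same order of drugs. The low ends of WT vehicle, 21006 and 22591, were those of WT vehicle females replicates 1 and 2. Leaving out WT fluoxetine male replicate 4 brought 3 members past the test between genotypes.

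Between the sexes 0 members passed (limma, 11 at an unadjusted p under 0.05). Of all genes 2.1% were called, 0.798% higher and 1.3% lower in females. Of the 40 estimates 34 lay below 0, that is lower in females (median log2 difference -0.03). Members vary together between libraries, so the 34 are not independent counts, and the 4 low vehicle libraries are all female. The smallest p-values were those of Rims2 (-0.09, SE 0.03, adjusted p = 0.053) and Sh3gl2 (-0.08, SE 0.02, adjusted p = 0.068). With both sexes together, Sh3gl2, endophilin A1, ran from 10597 through 11689 to 13409 in WT vehicle and 10713 through 11715 to 12565 in HT vehicle. The other 4 groups lay between 9815 and 13429. Without the 2 low fluoxetine libraries, 1 female and 1 male, 8 members passed between the sexes (3 higher and 5 lower in females, beside 3.39% and 3.47% of all genes), and without WT fluoxetine male replicate 1 alone 6 did.

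A wider list of 78 other genes of vesicle release, active zone adhesion, vesicle proteins and endocytosis was set beside the members. With fluoxetine over both genotypes 29 of 78 rose and 4 fell, with a median log2 change of 0.07, beside 13.2% of all genes higher and 13.2% lower. The counts of this list carry no correction for the trend of length and GC content. By role 10 of 22 active zone and adhesion genes, 9 of 21 endocytic genes, 6 of 17 fusion genes and 4 of 18 vesicle and Rab genes rose. The smallest p-values were those of Rabac1, a Rab acceptor, at -0.27 (adjusted p = 5.1e-10), the clathrin adaptor gene Ap2s1 at -0.24 (adjusted p = 9.9e-08), the receptor phosphatase gene Ptprs at 0.20 (adjusted p = 1.1e-07), the tomosyn gene Stxbp5 at 0.23 (adjusted p = 4.6e-07), the neurexin gene Nrxn2 at 0.23 (adjusted p = 6.5e-07) and Git1, an active zone scaffold, at 0.22 (adjusted p = 2.3e-06). Of these 78 genes 0 passed with lithium in WT (limma; 8 at an unadjusted p under 0.05), 7 rose and 0 fell in HT (2.75% and 2.26% of all genes), and 5 rose and 3 fell over both (5.54% and 4.67%).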

How the data were processed

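Values of 59 libraries (12 groups of genotype, drug and sex with 5 libraries, 4 in WT fluoxetine males) were analysed. The deposited values are a signal: gene-level read estimates, each scaled by the authors with a normalization factor. The submitters' processing notes name Salmon 0.11.2, DESeq2 1.19.11, R 3.6.0 and the mouse build GRCm38, and the labels' protocols a stranded mRNA kit. Whole reads could not be recovered: of values under 20, a median share of 56.9% (28.7% to 66.7% by library) lay within 0.1 of a whole multiple of the commonest low value. Read depth is therefore unknown. Sums of the scaled values ran from 30294700 to 33772300 per library, and standard errors come from the spread between libraries.

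Genes averaging at least 10 (16919) were fitted as log2(value + 1) with limma 3.58.1 in R 4.3.3 (trend, robust empirical Bayes, 12 group means, 47 residual degrees of freedom), two-sided, in 13 comparisons that weight the sexes equally. Changes within each sex, and the difference of the lithium change between the sexes, were added later from the same model. A gene was called when its p, adjusted by Benjamini-Hochberg over every gene of that comparison, was under 0.05. Fold changes are on the log2(value + 1) scale. A count model was planned in case the table held counts and was not run. Standard deviations (SD) are between libraries. Symbols, positions and lengths (longest basic protein-coding transcript) came from GENCODE M21, which held 51285 of the 51456 genes.

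All 40 members could be named; values per group were given for the 10 members with the smallest p with fluoxetine over both genotypes, 3 with lithium, 3 between genotypes and 2 between sexes, and of 78 other release genes the 6 with the smallest p were named. Members and lists were chosen with earlier results of these data known. The 12 marker lists stood for excitatory and inhibitory neurons, astrocytes, oligodendrocytes, microglia, endothelium, striatum, thalamus, olfactory bulb, dentate gyrus, choroid plexus and blood. Libraries counted as holding other regions when choroid plexus markers lay over 2, or those of striatum, thalamus or dentate gyrus over 1, above the median (log2). Olfactory bulb markers were not part of this rule. The model was tested on simulated data with independent noise for each gene and library, so that test does not cover genes that vary together. Python 3.11.15, NumPy 2.4.6, pandas 2.3.3 and matplotlib 3.10.9 were used for annotation and plots. Other scalings, filters, pseudocounts, fits and sets of libraries were tried as alternatives.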

Additional observations from a re-analysis of the deposited data

Results flagged for a closer look

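In each genotype and drug group, a member's highest or lowest library was looked at when its gap to the nearest of the others took up more of the group's range than Dixon's 95% critical value allows. This was so for 39 of 240 combinations of member and group, in 9 libraries, where chance gives about 1 in 20. Each is given as the normalized count, with the range of the other libraries of its group in parentheses. Members vary together between libraries, so these are not independent. Their cause was not tested.

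In HT fluoxetine female replicate 2, 17 members stood apart, 16 of them low. Of the fusion and priming genes these were Stx1a 2835 (9138 to 12585), Snap25 47993 (60895 to 73563), Vamp2 24946 (31255 to 35198), Cplx1 13744 (15979 to 18714), Cplx3 118 (311 to 573), Rims1 6249 (9860 to 14415), Rims2 2950 (3717 to 4438) and Rims3 1573 (3127 to 4198). Of the vesicle and scaffold genes they were Syn1 14714 (19715 to 22862), Ppfia2 6183 (3855 to 4418), Ppfia3 4659 (5667 to 6906), Sv2a 11754 (13558 to 15192), Syp 37301 (42685 to 49649), Syngr1 13557 (20398 to 24816), Rab3a 13276 (14939 to 16538), Rph3a 9201 (15371 to 19495) and Slc17a7 38937 (48074 to 58646). Ppfia2 was the one gene that lay high. This library also held markers of the dentate gyrus at 5.67 and of the choroid plexus at 7.43 on the log2 scale relative to the mean over all libraries, and excitatory neuron markers at -0.47.

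In WT fluoxetine male replicate 1, 10 members stood apart: Vamp1 2004 (2491 to 2869), Cplx2 22962 (29620 to 37134), Nsf 21422 (25525 to 29767), Bsn 17108 (20776 to 25029), Ppfia2 5199 (3990 to 4371), Ppfia3 4540 (5609 to 6220), Syp 34710 (44012 to 47011), Syngr1 16691 (21753 to 24707), Rab3a 12119 (14700 to 16398) and Slc17a7 36745 (49609 to 60474). Again Ppfia2 was high and the other 9 low. Its excitatory neuron markers lay at -0.34 and its olfactory bulb markers at 2.48 (log2).

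In HT lithium male replicate 2, 6 members stood apart: Syn2 20501 (17173 to 18831), Stx1a 13949 (9286 to 11317), Ppfia3 6343 (5202 to 5779), Sv2c 805 (1198 to 1862), Dnm3 3893 (4636 to 5253) and Slc17a6 409 (599 to 766). Syn2, Stx1a and Ppfia3 were high there, and Sv2c, Dnm3 and Slc17a6 low. Syngr3 stood apart in HT lithium male replicate 4 at 5170 (others 4309 to 4742). Rims3 stood apart in HT vehicle female replicate 1 at 5125 (others 3224 to 4010). Unc13c stood apart in HT vehicle female replicate 2 at 747 (others 877 to 1009). Syn2 stood apart in HT vehicle female replicate 3 at 15203 (others 16853 to 18575). Amph stood apart in WT fluoxetine female replicate 5 at 9971 (others 6167 to 7480). Slc17a7 stood apart in WT lithium male replicate 1 at 38476 (others 43758 to 50320).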

How the results depend on the processing

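No called direction turned under the 10 planned and 2 later alternatives, for the 40 fluoxetine changes and 4 lithium changes followed gene by gene. Counts of members passed moved by more than 1.5 times as follows, each beside the share of all genes called under that setting. Without a filter on low values, 4 passed for fluoxetine in HT (5.26%), and with the same sum in every library 3 (15.2%). With only the groups compared, 4 passed for fluoxetine in HT (9.65%) and 5 for lithium in HT (5.75%). With a length and GC trend removed, 4 passed for fluoxetine in WT (5.07%), 4 in HT (9.4%) and 8 over both genotypes (18.1%). The comparison of the sexes then gave 3 (1.84%). With quantile normalization 1 passed for lithium in WT (2.23%) and 2 between the sexes (2.12%). Fluoxetine over both genotypes gave 7 higher and 5 lower there (24.2%), against 10 higher and 2 lower with the same sum (27.3%). A mean of at least 50 gave 1 between the sexes (2.71%). Without the libraries with markers of other regions, 4 passed for fluoxetine in HT (6%) and 11 over both genotypes (19.1%). Lithium in WT then gave 1 (2.68%). Alternatives chosen after seeing the data left out the 2 low fluoxetine libraries or the 4 low vehicle females. The former gave 2 for lithium in WT (3.48%), 5 for lithium in HT (8.03%) and 8 for sex (6.86%). The latter gave 3 for fluoxetine in HT (8.65%) and 10 over both (20.1%). With lithium it gave 1 in WT (1.64%) and 1 in HT (0.674%).

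Leaving out 1 library at a time gave 7 to 12 members for fluoxetine in WT, 3 to 10 in HT, 11 to 21 over both genotypes, 18 to 24 for fluoxetine against lithium, 0 to 1 for lithium in WT, 1 to 5 in HT and 3 to 4 over both. It gave 0 to 3 for genotype over all drugs, 0 to 6 for sex, and 0 throughout for genotype in vehicle and the 3 planned tests of differences between effects. For fluoxetine in HT, 3 passed without HT vehicle female replicate 3 or 4, 4 without HT fluoxetine male replicate 3, and 5 without HT vehicle male replicate 1 or HT fluoxetine female replicate 1, 3 or 4. For lithium in HT, 1 passed without HT vehicle female replicate 3 or 4 and 5 without replicate 1. For lithium in WT, 1 passed without WT vehicle female replicate 1 or WT lithium female replicate 4. Between genotypes over all drugs, 3 passed without WT fluoxetine male replicate 4 or WT lithium male replicate 3. Between the sexes, 19 of 59 libraries brought at least 1 member past the test when left out. The share of all genes called in these fits is not given here.

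Replicate numbers did not mark pairs: across 145 pairs of the same number and sex the median correlation of deviations was 0.00087 (-0.48 to 0.63), and 13 of 59 libraries correlated best with their own number. With the replicate block 10 members passed for fluoxetine in WT, 7 in HT, 17 over both genotypes, 3 for lithium in HT and 3 over both. The median SE of a member was 0.0515 on the log2 scale for fluoxetine in HT and 0.037 over both genotypes, which limits what these libraries can show.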
